A study of Mus musculus with 847 samples.

Results

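The 10 genes described here are Igf1, Igf2, Igf1r, Igf2r, Insr, Irs1, Irs2, Igfbp2, Igfbp4 and Igfbp5, a named set of insulin and insulin-like growth factor (IGF) signalling genes. They are 10 of the 21076 genes in the deposited table and were chosen by name, not by a cut on their values, although earlier results of these data were known. The table holds RNA-seq libraries of 15 dissected brain regions from 59 C57BL/6JN mice, 25 females and 34 males, with no treatment or engineered allele named in the labels. Mice of both sexes were sampled at 3, 12, 15, 18 and 21 months of age, with 5 females and 5 males at each age apart from 6 males at 21 months. Males alone were sampled later, with 5 mice at 26 months and 3 mice at 28 months. The ages are also not spread evenly over the mouse numbers: the 12- and 26-month mice carry the numbers 1 to 15, the 28-month mice 57 to 59, and all others 16 to 56. Each region contributed 51 to 59 libraries, 1 per mouse, so the groups of 1 region, sex and age held 2 to 6 mice.

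IGF1, IGF2 and insulin are related peptide ligands. IGF1 acts through the tyrosine kinase receptor encoded by Igf1r, insulin through that encoded by Insr, and IGF2 through both; the adaptors IRS1 and IRS2 carry the signal from these receptors to PI3 kinase and Akt. The receptor encoded by Igf2r binds IGF2 without a kinase domain and delivers it to lysosomes. IGF-binding proteins, here Igfbp2, Igfbp4 and Igfbp5, hold IGFs outside the cell and change their access to receptors. In the adult brain Igf2 is known from the choroid plexus and the meninges, and Igf1 from neurons and glia.

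The shallowest library held 481444 reads and the deepest 26756735; the median depth was 6716032, and 10 libraries fell short of 1000000. Of 22 genes used to check the tissue labels, 18 had their highest median level in the region they mark. The exceptions were Mobp and Mog, myelin genes that were highest in pons, not in corpus callosum, and Dcx and Dlx2, which were highest in olfactory bulb, with the subventricular zone next. The entorhinal cortex library of mouse 52 stood apart: Igf2 was at 4.25 counts per 1000000 reads (CPM) there, against 11.9 to 62.8 CPM in the other entorhinal libraries, and Igfbp4 at 16.5 CPM, against 41.1 to 113 CPM. The counts of members with a slope over age were the same without that library. No member passed in entorhinal cortex with it, so a call there could be gained but not lost. Levels, tests between regions and correlations are given with that library kept. Levels are given in CPM after TMM scaling over all libraries. Choroid plexus libraries also held transcripts of neurons and oligodendrocytes. The summed level of 6 neuron genes had a median of 6202 CPM there, against 5771 CPM in anterior hippocampus. The sum of 7 oligodendrocyte genes had a median of 13033 CPM, and that of 10 choroid plexus epithelium genes ran from 592 to 12534 CPM. Levels and slopes given for choroid plexus are those of the dissected piece.

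All 10 genes were read in every region. Per kilobase of exon, which allows genes to be compared, the median over regions was highest for Igfbp2, at 16.0 CPM per kilobase, and Igfbp4, at 15.9. It was 11.8 for Irs2, 8.31 for Igfbp5, 6.30 for Igf1r, 3.84 for Insr, 2.13 for Igf2, 1.58 for Irs1, 1.54 for Igf2r and 0.912 for Igf1. By these medians over regions, the genes for the binding proteins were read at higher levels per length than those for the ligands. This did not hold in every region. Igf1 was at 3.26 CPM per kilobase in thalamus, against 2.44 for Igfbp4, and Igf2 at 12.7 in choroid plexus, against 6.78 for Igfbp5. Region accounted for 46.8% of the variance of log2 CPM for Igf2 and for 59.7% to 89.7% for the other members. Age beside region accounted for 0.0723% to 0.775% and sex for at most 0.0757%. Age and sex were each fitted here as 1 effect common to all regions, so changes that differ between regions are not in these shares.

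**Figure D1:**
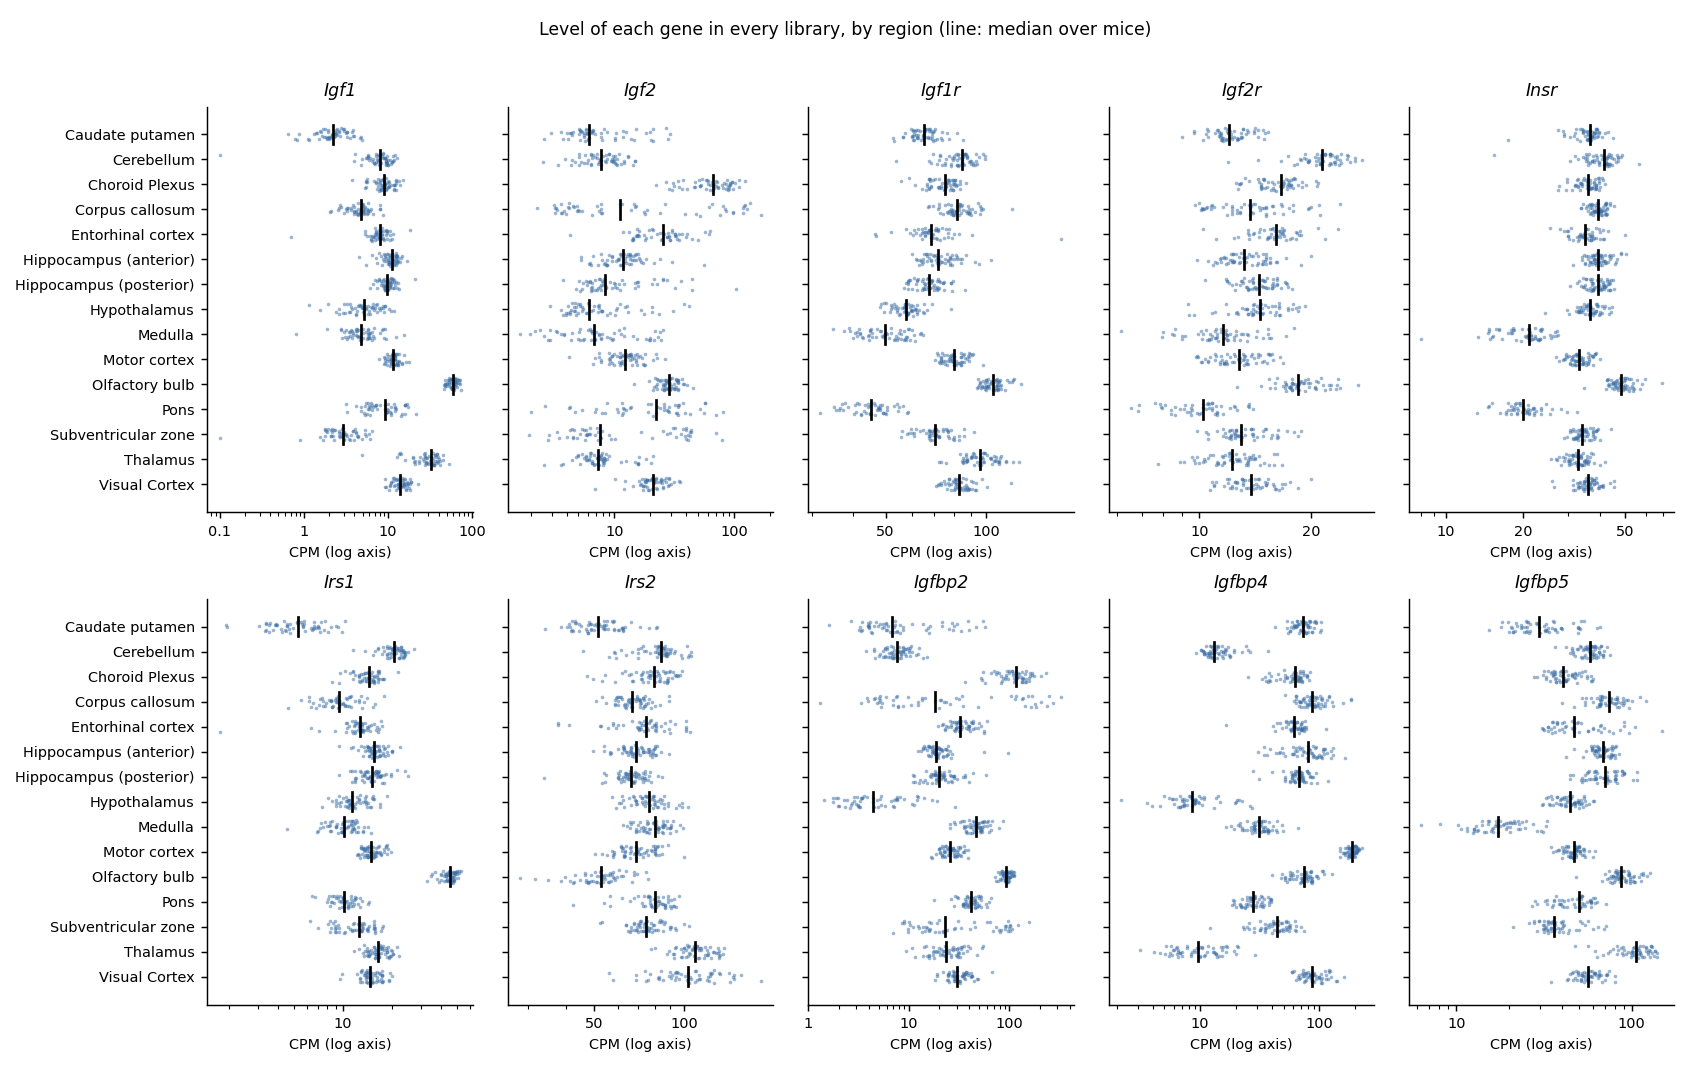
Level of each of the 10 genes in each of the 15 regions, in TMM-scaled CPM on a log axis, with 1 point per library, a line at the median, and libraries without a read drawn at 0.1 CPM. Igf1 peaked in olfactory bulb, Igf2 and Igfbp2 in choroid plexus, and Igfbp4 in motor cortex, while Igf1r, Igf2r, Insr and Irs2 stayed within a narrow band; Igf2 and Igfbp2 were spread widely in corpus callosum and subventricular zone.

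The order of the regions was tested gene by gene, each region against the next in the order of mean log2 CPM, in 1 edgeR quasi-likelihood fit of all libraries. Of the 140 neighbouring pairs 56 differed at a Benjamini-Hochberg adjusted p of 0.05 and 84 did not pass. Some of the 56 ran against that order, as given below for Igf2 and Igfbp2. Over all genes, the same pairs of regions differed in 82.1% of tests; the pairs are closest neighbours for the members alone, so the shares are not like for like. Against the mean of the other 14 regions, 130 of 150 levels of the members differed, and 84.3% of those of all genes. In bulk tissue, fewer cells of a type and less RNA per cell cannot be told apart, and this holds for every level and change given here.

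Igf1, the gene for the ligand IGF1 (chromosome 10, 87858265 to 87937042, plus strand), had its highest level in olfactory bulb, with a lowest, median and highest library of 46.5, 59.6 and 73.2 CPM. Thalamus followed at 4.92, 32.3 and 53.1 CPM, and visual cortex at 9.16, 13.9 and 22.6 CPM. The lowest levels were in subventricular zone, at a median of 2.96 CPM, and caudate putamen, at 2.21 CPM; 2 libraries, 1 of cerebellum and 1 of subventricular zone, had no Igf1 read. The medians of the extreme regions differed 26.9-fold. Olfactory bulb exceeded thalamus by 0.93 ± 0.055 (log2 difference ± SE, adjusted p = 2.0e-54, edgeR quasi-likelihood test), and thalamus exceeded visual cortex by 1.12 ± 0.063 (adjusted p = 6.6e-59). Between motor cortex (median 11.6 CPM), the anterior and posterior hippocampus (11.2 and 9.83), choroid plexus (9.03) and pons (9.18), no neighbouring pair passed, nor did entorhinal cortex and cerebellum, or hypothalamus and medulla. Medulla exceeded corpus callosum by 0.23 ± 0.085 (adjusted p = 0.0084), a call that was lost with the mouse as a block (adjusted p = 0.066, voom and limma).

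Igf2, the gene for IGF2 (chromosome 7, 142650766 to 142666816, minus strand), was highest in choroid plexus, the tissue that makes cerebrospinal fluid, with 22.4, 66.5 and 122 CPM in its lowest, median and highest library. Olfactory bulb followed at 14.5, 28.4 and 45.6 CPM, entorhinal cortex at a median of 25.7, pons at 22.4 and visual cortex at 21.1 CPM. Medulla was last in the order, at 1.63, 6.80 and 25.7 CPM. The ranges of choroid plexus and olfactory bulb overlapped, and the difference was 1.22 ± 0.15 on the log2 scale (adjusted p = 3.0e-15, edgeR). Olfactory bulb, entorhinal cortex, visual cortex and pons did not pass between neighbours, although the first exceeded the second with the mouse as a block (adjusted p = 0.439 without it and 0.048 with it, voom and limma). Corpus callosum libraries ran from 2.26 to 167.7 CPM around a median of 11.2, and subventricular zone from 1.94 to 78.8 CPM around 7.60; pons had a like range, from 2.02 to 81.5 CPM. The calls of pons, corpus callosum, motor cortex and subventricular zone against the next region depended on the model: the adjusted p of the 4 pairs was 0.013, 3.6e-15, 0.0045 and 0.025 in edgeR and 0.127, 0.115, 0.743 and 0.543 with the mouse as a block on the log scale. Their log2 differences were -0.41, 1.33, -0.52 and 0.43 in edgeR and 0.26, 0.29, 0.067 and -0.13 with the block. The direction thus changed with the model for pons, motor cortex and subventricular zone. In edgeR, the calls of pons and motor cortex ran against the order of mean log2 CPM.

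Igf1r, the gene for the IGF1 receptor (chromosome 7, 67952827 to 68233668, plus strand), varied 2.33-fold between the medians of its extreme regions. Olfactory bulb libraries held 93.7, 105.03 and 127.0 CPM at the lowest, median and highest, thalamus 72.3, 96.2 and 125 CPM, and pons, the last region, 31.9, 45.1 and 58.3 CPM. The olfactory bulb exceeded thalamus by 0.12 ± 0.029 log2 (adjusted p = 3.5e-05, edgeR), and thalamus exceeded visual cortex by 0.21 ± 0.029 (adjusted p = 6.0e-12). Visual cortex, corpus callosum, cerebellum and motor cortex did not pass between neighbours, apart from cerebellum over motor cortex with the mouse as a block (adjusted p = 0.057 without it and 0.044 with it). The 6 regions from choroid plexus (75.2 CPM) down to caudate putamen (65.0 CPM) did not pass between neighbours either. Hypothalamus (57.7 CPM), medulla (49.9 CPM) and pons each differed from the region above.

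Insr, the gene for the insulin receptor (chromosome 8, 3122061 to 3279617, minus strand), was highest in olfactory bulb, at 34.6, 48.0 and 69.7 CPM in the lowest, median and highest library, which exceeded cerebellum by 0.27 ± 0.029 log2 (adjusted p = 3.6e-19, edgeR). A second step lay between thalamus, at a median of 32.7 CPM, and pons, at 19.9 CPM, with a difference of 0.67 ± 0.031 (adjusted p = 1.8e-79). Pons and medulla (21.0 CPM) did not pass against each other. The 12 regions between these steps had medians of 32.7 to 41.3 CPM, and of their neighbouring pairs posterior hippocampus over hypothalamus passed (0.085 ± 0.029, adjusted p = 0.0049) and, with the mouse as a block alone, subventricular zone over motor cortex (adjusted p = 0.061 without it and 0.049 with it).

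Igf2r, the gene for the IGF2 receptor (chromosome 17, 12682406 to 12769664, minus strand), had its highest median in cerebellum, at 21.4 CPM within a range of 11.9 to 27.4, and its lowest in pons, at 10.3 CPM within 6.55 to 13.9. Cerebellum exceeded olfactory bulb by 0.18 ± 0.036 log2 (adjusted p = 1.2e-06, edgeR), and olfactory bulb (18.4 CPM) exceeded choroid plexus by 0.22 ± 0.037 (adjusted p = 2.7e-09). The 10 regions from hypothalamus (14.5 CPM) to medulla (11.6 CPM) did not pass between neighbours, and medulla exceeded pons by 0.20 ± 0.040 (adjusted p = 4.3e-06). The libraries are unstranded, and Airn, a noncoding RNA transcribed from the opposite strand across the start of Igf2r, reached a median of 13.4 CPM in cerebellum, its highest region, so reads of the overlap cannot be assigned to either gene. The antisense genes of Igf1 and Igf2, Igf1os and Igf2os, had median levels of at most 0.118 CPM.

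Irs1, the gene for the adaptor IRS1 (chromosome 1, 82233101 to 82291416, minus strand), stood out in olfactory bulb, at 32.6, 45.4 and 52.9 CPM in the lowest, median and highest library, above every library of every other region. Cerebellum, the next region, held 11.6, 20.5 and 27.4 CPM and was lower by 1.12 ± 0.041 log2 (adjusted p = 5.5e-117, edgeR). Caudate putamen was lowest, at 1.90, 5.26 and 10.2 CPM, and was exceeded by corpus callosum by 0.77 ± 0.056 (adjusted p = 1.8e-37). Thalamus, both hippocampal parts and the motor and visual cortex, with medians of 14.7 to 16.4 CPM, did not pass between neighbours. Irs2, the gene for the adaptor IRS2 (chromosome 8, 10984681 to 11008458, minus strand), had another order: thalamus, at 77.7, 109 and 137 CPM, and visual cortex, at 56.0, 103 and 181 CPM, led, and olfactory bulb (52.8 CPM) and caudate putamen (51.4 CPM) were last. Irs2 had 2 steps between neighbours that passed, visual cortex over cerebellum (0.38 ± 0.041, adjusted p = 3.6e-19) and posterior hippocampus over caudate putamen (0.33 ± 0.043, adjusted p = 4.4e-14). The other 12 pairs did not pass.

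Igfbp2, the gene for a binding protein with affinity for IGF2 (chromosome 1, 72824503 to 72852474, plus strand), was highest in choroid plexus, at 36.4, 116 and 228 CPM in the lowest, median and highest library, and olfactory bulb, at 72.1, 92.2 and 111 CPM. Choroid plexus exceeded olfactory bulb by 0.31 ± 0.13 log2 (adjusted p = 0.022, edgeR) and olfactory bulb exceeded medulla (46.6 CPM) by 0.96 ± 0.13 (adjusted p = 3.5e-12). Hypothalamus was lowest, at 1.42, 4.34 and 28.9 CPM, and cerebellum (7.60 CPM) exceeded it with the mouse as a block alone (adjusted p = 0.126 without it and 0.027 with it). Corpus callosum libraries spread from 1.32 to 329 CPM and subventricular zone libraries from 6.91 to 156 CPM. The 4 calls between neighbours that involve these 2 regions, and that of caudate putamen over cerebellum, had adjusted p of at most 0.0088 in edgeR and at least 0.297 with the mouse as a block on the log scale. In edgeR, visual cortex minus subventricular zone was -0.41 log2 and thalamus minus corpus callosum -1.08, against the order of mean log2 CPM. With the block these differences were 0.13 and 0.11, so their direction depended on the model.

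Igfbp4, the gene for a binding protein that is cut by the protease PAPP-A (chromosome 11, 99041244 to 99054392, plus strand), was highest in motor cortex, at 148, 189 and 227 CPM in the lowest, median and highest library. Visual cortex, another cortical area, held 58.6, 86.7 and 160 CPM, and entorhinal cortex a median of 61.7 CPM. Motor cortex exceeded corpus callosum (51.3, 86.3 and 185 CPM), the next region, by 1.05 ± 0.065 log2 (adjusted p = 1.9e-50, edgeR). Cerebellum (13.2 CPM), thalamus (9.57 CPM) and hypothalamus (8.59 CPM) were lowest. Pons exceeded cerebellum by 0.95 ± 0.082 (adjusted p = 3.1e-28), while thalamus and hypothalamus did not pass against each other. The 5 pairs from anterior hippocampus down to choroid plexus did not pass, although caudate putamen over posterior hippocampus passed with the mouse as a block (adjusted p = 0.076 without it and 0.044 with it).

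Igfbp5, the gene for a binding protein that also attaches to extracellular matrix (chromosome 1, 72857932 to 72874884, minus strand), lies 5457 bases from Igfbp2 and is transcribed from the opposite strand. Its order by region was another one, led by thalamus, at 47.6, 106 and 140 CPM in the lowest, median and highest library, and olfactory bulb, at 48.0, 86.5 and 127 CPM. Medulla was lowest, at 6.31, 17.2 and 32.9 CPM, below caudate putamen (29.5 CPM) by 0.77 ± 0.064 log2 (adjusted p = 1.7e-30, edgeR). Corpus callosum and posterior hippocampus, the 2 hippocampal parts, and cerebellum, visual cortex and entorhinal cortex did not pass between neighbours. With the mouse as a block, visual cortex exceeded entorhinal cortex (adjusted p = 0.00084, against 0.090 without it), and entorhinal cortex no longer exceeded motor cortex (0.185, against 0.0025). The regions from motor cortex to choroid plexus did not pass between neighbours.

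Igf2 and Igfbp2 moved together between libraries. After region, age and sex were taken out of log2 CPM, their Pearson r over the libraries of all regions was 0.77, the largest among the 45 pairs of members. Within regions it was 0.96 in corpus callosum, 0.94 in subventricular zone, 0.92 in choroid plexus and 0.91 in caudate putamen, and as low as 0.26 in cerebellum and 0.31 in both medulla and thalamus. These are descriptions without a test, and the 2 genes share each library's depth and dissection. The summed level of 10 choroid plexus epithelium genes moved with them: across corpus callosum libraries that sum ran from 5.88 to 19336 CPM, and its r was 0.95 with Igf2 and 0.92 with Igfbp2. In subventricular zone the sum ran from 41.0 to 8713 CPM, and the r values were 0.94 and 0.95. The corpus callosum library of mouse 27, a male of 18 months, had the highest values of that region for Igf2 (168 CPM), Igfbp2 (329 CPM) and the choroid sum (19336 CPM). The summed level of 10 genes of leptomeninges and perivascular fibroblasts also moved with Igf2 and Igfbp2 in some regions, with an r of 0.88 and 0.86 in corpus callosum and of 0.86 and 0.87 in subventricular zone. It did not in choroid plexus, with an r of -0.039 and -0.23, against 0.91 and 0.96 for the choroid sum. In olfactory bulb the leptomeninges sum had an r of 0.37 and 0.28. For Igf2 its r was 0.95 in pons, where that of the choroid sum was 0.83, and 0.91 in hypothalamus, where that of the choroid sum was 0.30. In medulla its r was 0.89 with Igf2 and 0.34 with Igfbp2. That sum ran from 40.3 to 509 CPM in pons and from 24.6 to 191 CPM in hypothalamus. The median of each of the 10 choroid genes was above 0 in corpus callosum and subventricular zone, and the part of such tissue in the levels of Igf2 and Igfbp2 was not tested.

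**Figure D2:**
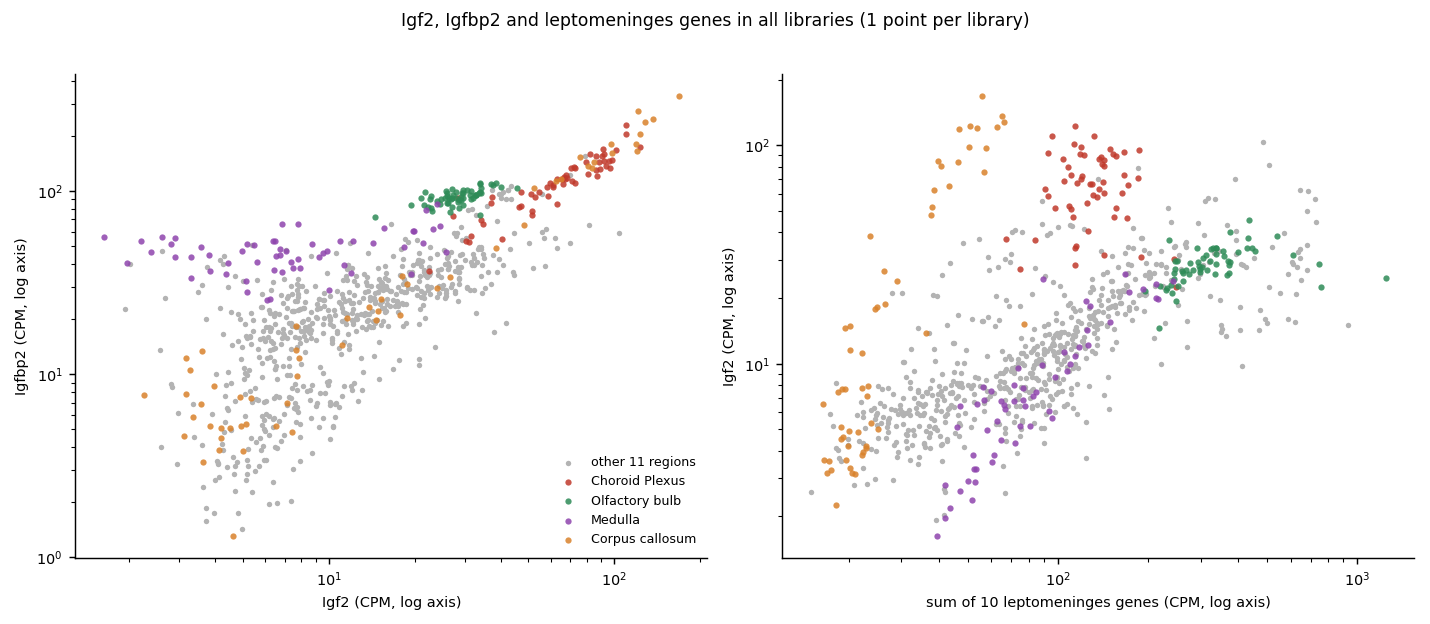
Left, Igf2 against Igfbp2, and right, the summed level of 10 leptomeninges genes against Igf2, in TMM-scaled CPM on log axes, with 1 point for each library of the series and 4 regions in colour. Corpus callosum points run along a diagonal on the left, over 2.26 to 167.7 CPM of Igf2, and medulla points do so on the right, where Igf2 ran from 1.63 to 25.7 CPM.

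The stretches upstream of a start of Igf2 and of Igfbp2 are shown because these are the 2 genes that moved together. They are the 250 bases before the fourth of 4 listed Igf2 starts (chr7:142657497-142657746, minus strand) and before the first of 2 listed Igfbp2 starts (chr1:72824230-72824479, plus strand), from RefSeq on GRCm38.p6, written 5′ to 3′. Capitals mark matches, on either strand, to GGGCGG (the GC box bound by Sp factors) and CACGTG (an E-box); no 2 matches overlap.
Igf2: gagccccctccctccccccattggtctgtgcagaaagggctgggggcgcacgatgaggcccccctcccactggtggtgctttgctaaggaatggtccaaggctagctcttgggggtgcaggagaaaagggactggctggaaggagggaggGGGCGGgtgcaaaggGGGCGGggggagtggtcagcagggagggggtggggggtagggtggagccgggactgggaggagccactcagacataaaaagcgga
Igfbp2: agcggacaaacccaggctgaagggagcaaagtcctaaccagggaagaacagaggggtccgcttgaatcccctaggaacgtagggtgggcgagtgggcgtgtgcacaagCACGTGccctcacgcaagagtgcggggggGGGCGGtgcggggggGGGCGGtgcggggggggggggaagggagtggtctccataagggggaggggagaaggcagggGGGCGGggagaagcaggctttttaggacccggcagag
The Igf2 window held 2 GC boxes, and the Igfbp2 window 3 GC boxes and 1 E-box. Of all 32851 windows of this length in the RefSeq table, 32.7% held a GC box and 6.02% the E-box. Among the 13 windows found for 9 of the 10 members, TATAAA occurred in that of Igfbp4 (12.4% of all windows hold it) and TGTTTAC, a forkhead motif, in none (3.17% of all windows). Such matches describe the letters only.

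For each member, the genes with the most similar pattern were sought by Pearson r, among the 11957 genes whose mean reached 5 CPM, over the 15 region means. For Igf2 these were Pcolce (0.97), Slc13a4 (0.94) and Kcnj13 (0.86), and for Igfbp2 Tmem86a (0.83), Ceacam1 (0.82) and Pcolce (0.79). Insr had the closest matches of any member, Rsf1, Setd2 and Zfx, each at 0.98. Igf1 was closest to B3gat2 (0.91), Depdc5 (0.90) and Tmem169 (0.88), and Igf1r to Purg (0.92), Creb1 (0.91) and Arih1 (0.91). Igf2r was closest to Syne2 (0.92), Leng8 (0.89) and Snhg1 (0.89), Irs1 to Lrp8 (0.92), Nasp (0.91) and Bcl2l11 (0.91), and Irs2 to Ccdc136 (0.86), Cdkl1 (0.86) and Arid5b (0.85). Igfbp4 was closest to Klf10 (0.92), Igfbp6 (0.90), which encodes a further binding protein, and Fhl2 (0.90), and Igfbp5 to Gtf2i (0.79) and Ankra2 (0.78). Over all libraries, with region, age and sex taken out, Igf2 was closest to Slc13a4 (0.88) and Igfbp2 to Slc31a1 (0.80), while the closest genes of the other 8 members reached 0.36 to 0.55. The median r over all genes was within 0.05 of 0 in each case. The named genes were picked as the highest of 11957, so their r is high by that choice and the median is no yardstick for it. The region means give only 15 points, and likeness beyond that choice was not tested.

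With age, the members changed in few regions. Of the 150 pairs of a member and a region, 8 passed the edgeR quasi-likelihood test of a linear slope over age with sex as covariate: 3 rose and 5 fell. That is 5.33% of the pairs, against 11.5% of all genes and regions (6.37% rising and 5.1% falling). The members that passed were Irs1, Igfbp4 and Igfbp5; the slopes of Igf1, Igf2, Igf1r, Igf2r, Insr, Irs2 and Igfbp2 did not pass in any of the 15 regions. At an unadjusted p under 0.05 these were 2, 0, 2, 1, 1, 3 and 3 regions, in that order. DESeq2 called Insr in hypothalamus (adjusted p = 0.044) and 1 pair more. The median slope over the 150 pairs was -5.5e-05 log2 per month, and that over all genes and regions -0.00012.

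By region, thalamus had 2 of 10 members past the threshold, against 4.79% of all genes tested there. There was 1 of 10 in each of caudate putamen (13.9% of all genes), choroid plexus (20.8%), anterior hippocampus (11.4%), hypothalamus (7.33%), motor cortex (17.3%) and olfactory bulb (16.8%). In the other 8 regions 0 of 10 passed: cerebellum (18.9% of all genes), corpus callosum (18.6%), entorhinal cortex (0.227%), posterior hippocampus (6.82%), medulla (10.8%), pons (5.7%), subventricular zone (8.52%) and visual cortex (10.7%). Unadjusted p under 0.05 occurred for 0 to 3 of the 10 members in these 8 regions, and DESeq2 called 1 pair in them, Igf2r in medulla (adjusted p = 0.045).

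**Figure D3:**
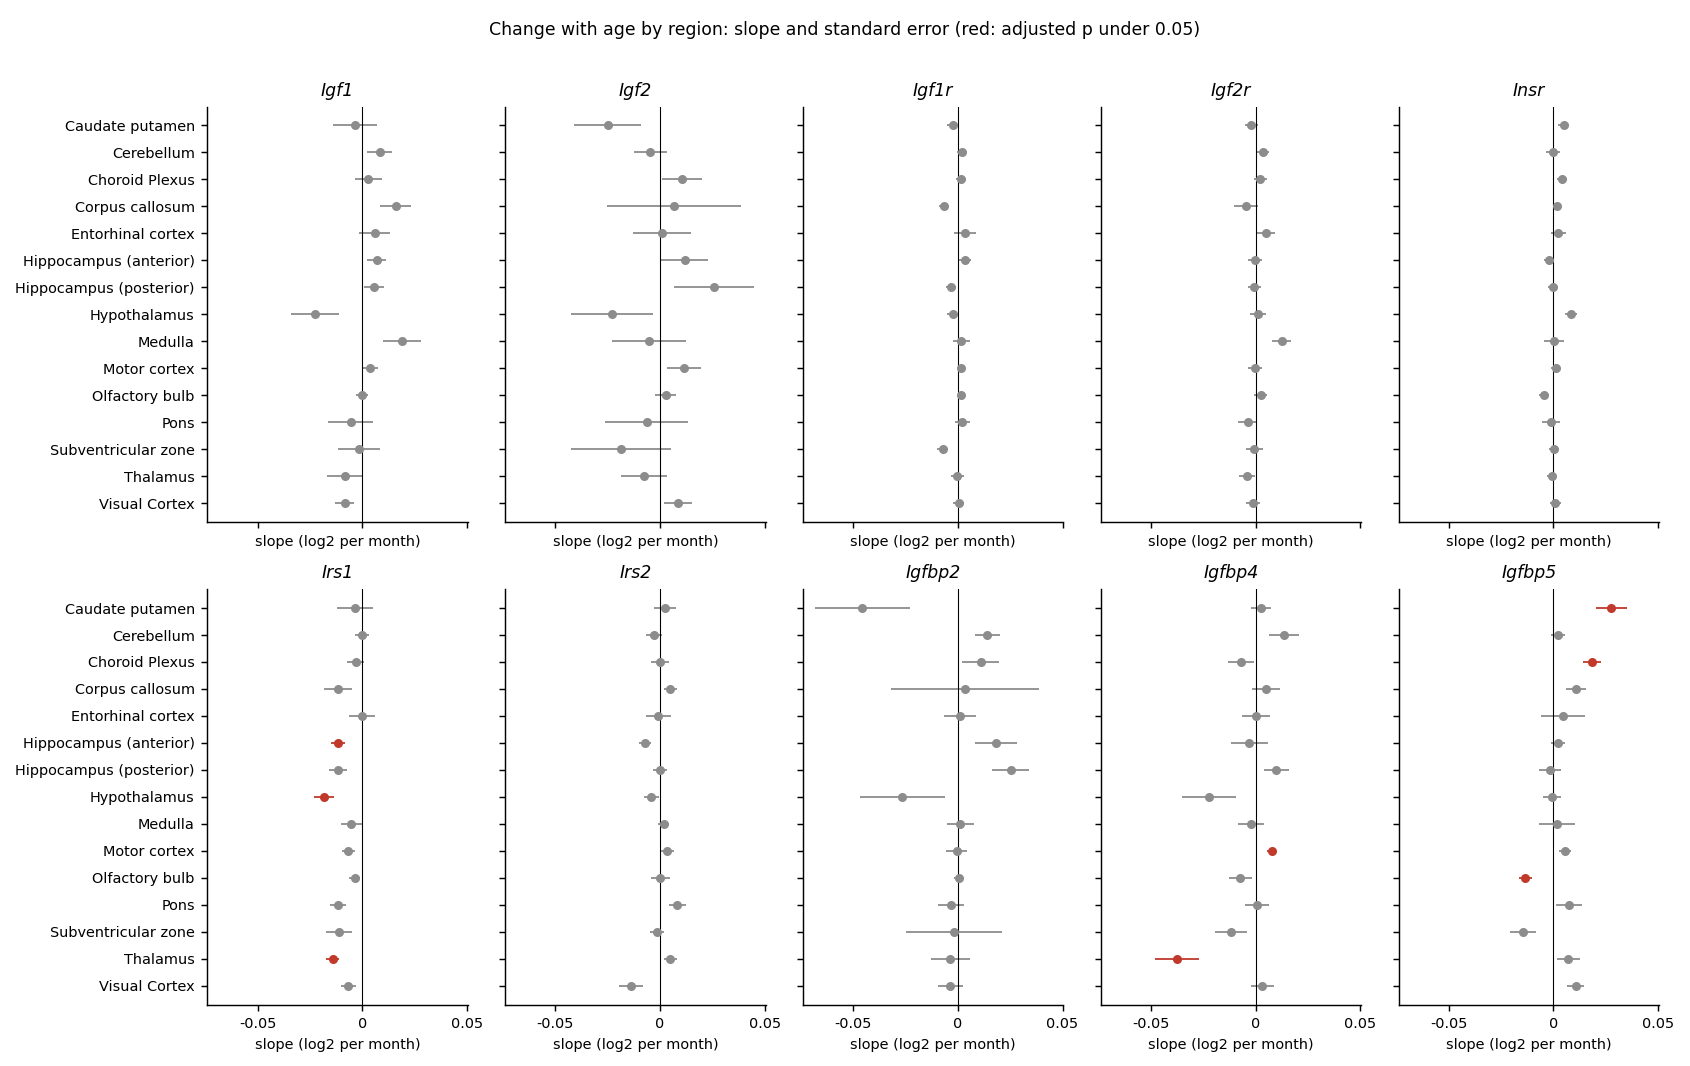
Slope over age of each member in each region, in log2 per month from the edgeR fit, with bars of 1 standard error and the 8 slopes past the threshold in red. Irs1 slopes lie below 0 in all 15 regions of this fit, and in 13 with RLE scaling; Igfbp5 rises in caudate putamen and choroid plexus and falls in olfactory bulb, and the bars are widest for Igf2 and Igfbp2.

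Irs1 fell in thalamus, hypothalamus and anterior hippocampus. In thalamus, the 10 mice of 3 months had a lowest, median and highest level of 14.3, 19.1 and 22.0 CPM. The 5 mice of 26 months had 13.5, 14.0, 16.6, 17.1 and 17.9 CPM and the 3 mice of 28 months 14.5, 15.5 and 15.6 CPM, so 2 of these 8 lay below the young range and the other 6 in its lower part. The slope was -0.014 ± 0.0030 log2 per month (SE, n = 59 libraries, adjusted p = 0.00096, edgeR quasi-likelihood test), or -0.36 over 25 months. In hypothalamus, the level was 10.5, 12.6 and 18.6 CPM at 3 months (n = 9), 9.01, 9.78 and 13.9 CPM at 21 months (n = 11), 10.6, 10.8, 13.3 and 13.7 CPM in the 4 mice of 26 months and 8.52 and 11.1 CPM in the 2 of 28 months. The groups overlapped, and the slope was -0.018 ± 0.0046 (n = 55, adjusted p = 0.0084, edgeR). In anterior hippocampus, the level was 14.3, 16.8 and 20.0 CPM at 3 months (n = 10), and the 26-month mice had 9.46, 11.2, 13.0, 13.3 and 22.5 CPM. Of these 5, 4 lay below every 3-month library and 1 lay above all of them, while the 28-month mice had 13.9, 15.8 and 17.6 CPM. The slope was -0.012 ± 0.0033 (n = 57, adjusted p = 0.014, edgeR).

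The Irs1 slope was negative in 15 of 15 regions, from -0.018 to -8.0e-05, which holds for 546 of the 12920 genes tested in every region (4.23%). That count was 13 with RLE scaling and with either marker covariate, 14 with DESeq2 and without the libraries under 1000000 reads, and 15 in the other 4 settings run. In males alone, Irs1 passed in thalamus, but not in anterior hippocampus (adjusted p = 0.075) or hypothalamus (0.062). In anterior hippocampus, 6 of the 7 choroid plexus epithelium genes tested rose with age; their sum was 13.3 to 39.9 CPM at 3 months and 18.6 to 4748 CPM at 26 months. With that list as a covariate the Irs1 slope there was -0.010 ± 0.0034 (adjusted p = 0.051).

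Igfbp5 rose in caudate putamen and choroid plexus and fell in olfactory bulb. In caudate putamen, the 9 mice of 3 months had a lowest, median and highest level of 15.4, 25.1 and 50.5 CPM. The 26-month mice had 32.1, 39.5, 46.5, 51.2 and 63.3 CPM, and the 28-month mice 49.3, 53.1 and 66.1 CPM. Means stayed between 26.0 and 32.7 CPM from 3 to 21 months and were 46.5 ± 11.8 CPM (SD, n = 5) at 26 and 56.2 ± 8.82 CPM (SD, n = 3) at 28 months. The slope was 0.028 ± 0.0072 log2 per month (n = 58, adjusted p = 0.0057, edgeR). Among the mice numbered 16 to 56, which hold no mouse over 21 months, it was 0.014 ± 0.0091 and did not pass (adjusted p = 0.412). In choroid plexus, the 3-month level was 27.7, 37.9 and 43.4 CPM (n = 10), the 26-month mice had 32.4, 36.9, 41.2, 58.3 and 60.2 CPM, and the 28-month mice 45.6, 56.0 and 59.6 CPM, all 3 above the young range. The slope was 0.018 ± 0.0043 (n = 57, adjusted p = 0.0016, edgeR), and in males alone it was 0.013 ± 0.0051 (adjusted p = 0.120). In olfactory bulb, the 3-month level was 77.7, 107 and 127 CPM (n = 10). The 26-month mice had 75.1, 80.1, 82.2, 86.9 and 90.7 CPM and the 28-month mice 48.0, 77.4 and 96.1 CPM, so 3 of these 8 lay below the young range and the other 5 in its lower part. The slope was -0.013 ± 0.0032 (n = 58, adjusted p = 0.0023, edgeR).

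Igfbp4 rose in motor cortex and fell in thalamus. In motor cortex, its region of highest level, the 10 mice of 3 months had 148, 183 and 201 CPM at the lowest, median and highest. The 26-month mice had 184, 186, 190, 203 and 227 CPM and the 28-month mice 203, 206 and 214 CPM, all 3 above every 3-month library. The slope was small, at 0.0077 ± 0.0022 log2 per month (n = 59, adjusted p = 0.0097, edgeR), or 0.19 over 25 months, and did not pass among the mice numbered 16 to 56 (0.0062 ± 0.0026, adjusted p = 0.110). In thalamus, where the gene is low, the 3-month level was 6.79, 11.9 and 19.4 CPM. The 12-month mice were the highest group, at 9.99, 16.5 and 28.9 CPM, and the 28-month mice had 5.03, 6.44 and 7.69 CPM. The 26-month mice had 3.13, 5.85, 6.77, 9.13 and 19.9 CPM, a range as wide as that of the young mice. The slope was -0.038 ± 0.010 (n = 59, adjusted p = 0.021, edgeR). It was -0.051 ± 0.014 in males alone (adjusted p = 0.053) and -0.027 ± 0.010 among the mice numbered 16 to 56 (adjusted p = 0.166).

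**Figure D4:**
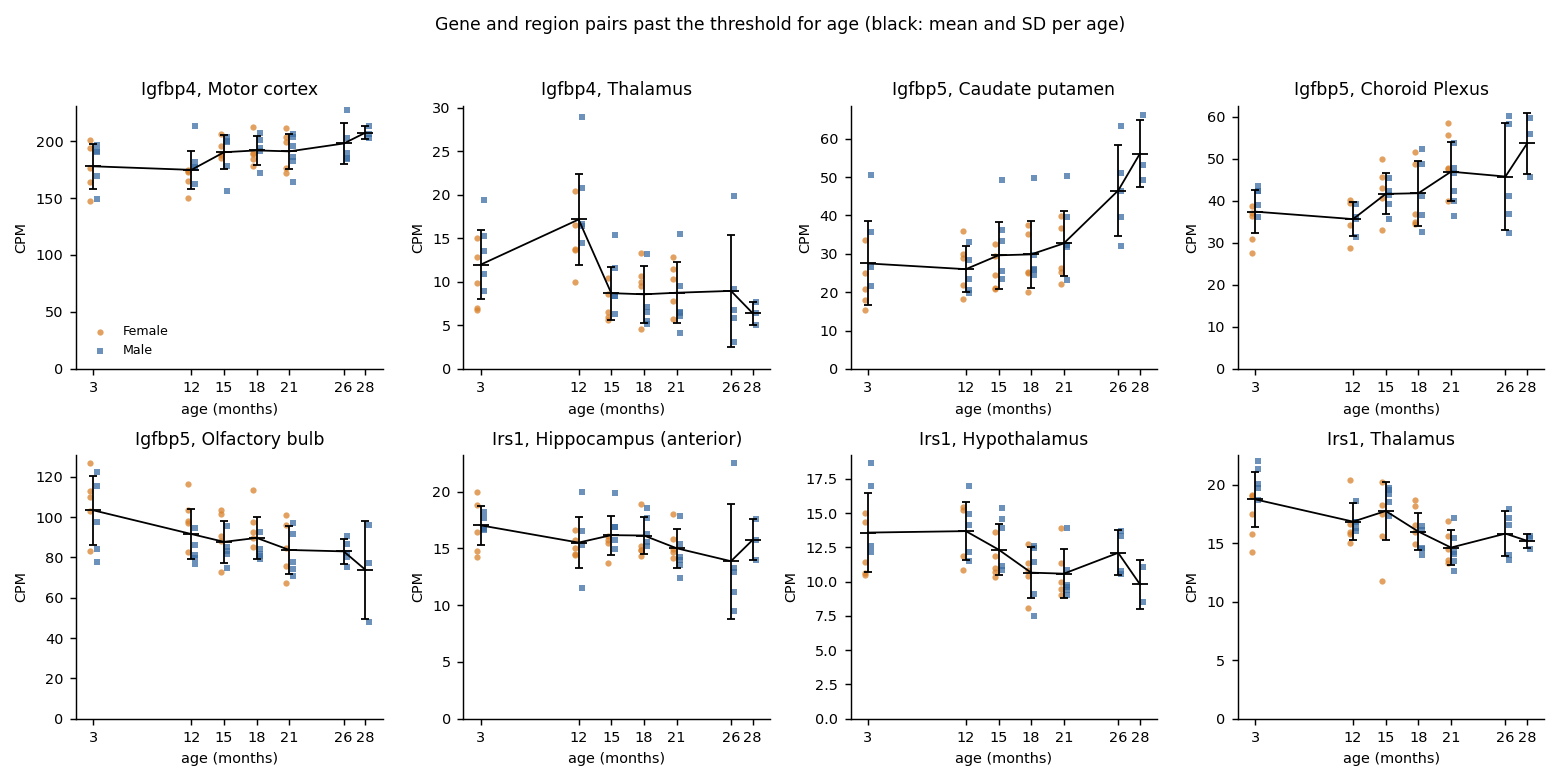
The 8 pairs of a member and a region that passed the test of a slope over age, in TMM-scaled CPM against age in months, with 1 point per library, the sexes by colour and symbol, and the mean and SD of each age in black. Igfbp5 in caudate putamen is level to 21 months and higher at 26 and 28 months, and Igfbp4 in thalamus is highest at 12 months.

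Markers of other cell types also moved with age in the regions with a call. Of the activated microglia genes tested, 6 of 8 rose in caudate putamen, 7 of 8 in choroid plexus, 5 of 7 in anterior hippocampus, 5 of 8 in hypothalamus, 3 of 6 in motor cortex, 2 of 8 in thalamus and 1 of 7 in olfactory bulb. Of 10 leptomeninges genes, 2 fell in olfactory bulb, 1 in thalamus and 1 in anterior hippocampus, and 1 rose and 1 fell in choroid plexus. All 8 calls passed with the leptomeninges list as a covariate, and 7 passed with the choroid plexus list. The part of leptomeningeal, choroid or microglial RNA in these calls was not tested.

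Each later age was also set against 3 months with age as a factor, which gave 20 calls in 900 tests of members (2.22%). At 12 months 5 of 150 passed (1.76% of all genes and regions). The 15- and 18-month mice gave 1 call each (1.28% and 2.87% of all), the 21-month mice 5 (6.99%), the 26-month mice 3 (4.32%) and the 28-month mice 5 (6.34%). All 5 calls at 12 months were lower than at 3 months: Igf1 in cerebellum (log2 difference -0.65 ± 0.14, adjusted p = 0.0031, edgeR), Igf2 in thalamus (-1.03 ± 0.27, adjusted p = 0.017), Igfbp4 in olfactory bulb (-0.42 ± 0.12, adjusted p = 0.026), and Igfbp5 in cerebellum (-0.26 ± 0.078, adjusted p = 0.040) and thalamus (-0.48 ± 0.12, adjusted p = 0.011). None of these 5 pairs had a called slope over all ages. The 12-month mice differ from the 3-month mice in their block of numbers as well as in age, which cannot be told apart. The same holds for the 26- and 28-month mice, all males, and for the part of a slope over age that rests on them.

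Igfbp5 in olfactory bulb was below the 3-month level at 15, 18 and 21 months, with log2 differences of -0.32 to -0.24 and adjusted p of 0.0056 to 0.044 (edgeR). Irs1 was lower at 21 months in thalamus (-0.34 ± 0.067, adjusted p = 0.00044, edgeR) and hypothalamus (-0.35 ± 0.11, adjusted p = 0.046), and at 26 months in anterior hippocampus (-0.48 ± 0.10, adjusted p = 0.0010) and visual cortex (-0.43 ± 0.11, adjusted p = 0.0081). Of the receptor genes, Igf1r was lower at 28 months in corpus callosum (-0.28 ± 0.091, adjusted p = 0.039) and higher in medulla (0.34 ± 0.13, adjusted p = 0.048), and Igf2r was higher in medulla (0.60 ± 0.16, adjusted p = 0.0052). These rest on 3 mice of 28 months. Without any 1 of them, both Igf1r calls were lost, with adjusted p of 0.080 to 0.250 in corpus callosum and 0.051 to 0.213 in medulla, and that of Igf2r was lost without mouse 57 (adjusted p = 0.051). Igfbp5 was higher at 28 months in caudate putamen (0.91 ± 0.24, adjusted p = 0.0092; 0.072 without mouse 57) and choroid plexus (0.53 ± 0.15, adjusted p = 0.027; 0.299 without mouse 58 and 0.143 without mouse 59). The remaining calls at 21 months were Igfbp5 in choroid plexus (0.34 ± 0.099, adjusted p = 0.013, edgeR) and Irs2 in anterior hippocampus (-0.22 ± 0.065, adjusted p = 0.036). At 26 months Igfbp2 was called in anterior hippocampus (0.80 ± 0.27, adjusted p = 0.048, edgeR), where the choroid genes also rose. This last call did not pass without mouse 59 (adjusted p = 0.051, edgeR), although that mouse, of 28 months, is not in the contrast. Mouse 5, of 26 months, had the highest Igfbp2 of that region (96.8 CPM, against a median of 18.6) and its highest choroid sum (4748 CPM). The call was not tested without mouse 5. In males alone 14 of the 20 calls did not pass.

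Whether slopes differed between regions was tested in the joint fit. Of the 10 members, 2 differed between any regions, Igfbp5 (adjusted p = 0.00039) and Igfbp4 (adjusted p = 0.012), against 22.7% of all genes. With the mouse as a block Igfbp5 remained past the threshold and Igfbp4 did not (adjusted p = 0.051, voom and limma). Against the mean slope of the other 14 regions, 6 of 150 slopes of the members differed, and 2.0% of those of all genes. Igfbp5 accounted for 3 of them, with a difference of 0.025 ± 0.0064 log2 per month in caudate putamen (adjusted p = 0.039, edgeR), -0.019 in olfactory bulb (0.033) and -0.021 in subventricular zone (0.036). The last was lost with the mouse as a block (adjusted p = 0.106). Igfbp4 in thalamus differed by -0.037 (adjusted p = 0.0092; 0.056 with the block), Igf2r in medulla by 0.013 (0.017) and Irs2 in visual cortex by -0.015 (0.044). None of the 6 passed among the mice numbered 16 to 56. For Irs1 the test of any difference between regions did not pass (adjusted p = 0.358), so its fall in 3 regions was not shown to differ from the slopes of the other 12.

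Between the sexes, over the 5 ages with both, 6 of 150 pairs differed, against 3.01% of all genes and regions, and 5 of the 6 were lower in males. Medulla held 3 of them, in a region where 24.6% of all genes differed. Igf1 in medulla was at 3.15, 5.87 and 15.4 CPM (lowest, median and highest of 24 females) and at 0.803, 4.02 and 6.83 CPM in 26 males, overlapping ranges with a log2 difference of male minus female of -0.72 ± 0.15 (adjusted p = 0.00031, edgeR). In medulla, Insr (medians of 22.9 CPM in females and 20.1 in males) differed by -0.20 ± 0.068 (adjusted p = 0.023) and Igf2r (11.8 and 11.2 CPM) by -0.20 ± 0.070 (adjusted p = 0.027). Irs2 in motor cortex had medians of 77.5 CPM in 25 females and 64.8 CPM in 26 males and differed by -0.20 ± 0.043 (adjusted p = 0.0033; 3.81% of all genes there). Igfbp5 in olfactory bulb had medians of 97.1 and 83.2 CPM and differed by -0.17 ± 0.049 (adjusted p = 0.043; 2.12% of all genes). Igf1r in corpus callosum was higher in males, with medians of 79.7 CPM in females and 87.6 CPM in males and a difference of 0.14 ± 0.036 (adjusted p = 0.048; 0.476% of all genes).

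Among the mice numbered 16 to 56, males and females carry separate runs of numbers, so sex and number cannot be told apart there, and in those mice alone 2 of the 6 differences passed, Igf1 in medulla and Irs2 in motor cortex. The 12-month mice alternate in number between the sexes. In these at most 10 mice none of the 6 passed, although each had the same direction; Igf1 in medulla differed by -0.32 (adjusted p = 0.844). No member had a slope over age that differed between the sexes: 0 of 150 passed, 18 had an unadjusted p under 0.05 and the lowest adjusted p was 0.136 (edgeR). Over all genes, 0.0694% of these tests passed, and 13691 of the 211769 had an unadjusted p under 0.05.

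The rest of the pathway was read from a list of 67 further genes, of which 63 were tested in at least 1 region. Of their 845 pairs with a region, 47 rose and 64 fell with age, 13.1% in all, against the 11.5% of all genes given above. The median slope was -0.0010 log2 per month. Of the binding proteins and their proteases 4 pairs rose and 12 fell of 92; of the receptor and adaptor genes 9 rose and 13 fell of 192; of PI3 kinase, Akt and their inhibitors 17 rose and 20 fell of 219. The mTOR branch had 7 rising and 12 falling of 180, and the output genes 9 and 4 of 124. Of the insulin genes, Ins2 reached a median of 1.24 CPM in choroid plexus and was at a median of 0 in 13 regions, and Ins1 was at a median of 0 in all 15.

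Genes of this list that passed in 1 direction in at least 5 regions numbered 6 of the 63 tested, or 9.52%, against 8.53% of all 16000 genes tested in any region. Slc2a4, which encodes the insulin-responsive glucose transporter GLUT4, rose in 8 regions, with slopes of 0.028 to 0.068 log2 per month; in corpus callosum its mean was 0.907 ± 0.579 CPM at 3 months (SD, n = 10) and 4.29 ± 1.39 CPM at 28 months (n = 3). Inpp5d, which encodes the lipid phosphatase SHIP1 of blood and microglial cells, rose in 9 regions, with slopes of 0.011 to 0.048, and in medulla from 3.15 ± 1.53 CPM to 8.30 ± 0.815 CPM. In medulla 6 of 7 homeostatic microglia genes and 7 of 8 activated microglia genes also rose, and the part of microglial RNA in the rise of Inpp5d was not tested. Ddit4, an inhibitor of mTORC1, fell in 7 regions, with slopes of -0.023 to -0.012, and in medulla from 15.8 ± 3.89 CPM to 7.67 ± 1.60 CPM. Pdpk1, the kinase that phosphorylates Akt, fell in 7 regions, with slopes of -0.012 to -0.0040, and in subventricular zone from 118 ± 18.3 CPM to 89.7 ± 4.44 CPM. Akt2, a kinase of the insulin response, fell in 5 regions, with slopes of -0.011 to -0.0066, and in anterior hippocampus from 89.2 ± 9.31 CPM to 70.0 ± 7.30 CPM. Sh2b1, an adaptor of the insulin receptor, fell in 6 regions, with slopes of -0.010 to -0.0052, and in subventricular zone from 68.1 ± 8.45 CPM to 55.1 ± 2.07 CPM.

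**Figure D5:**
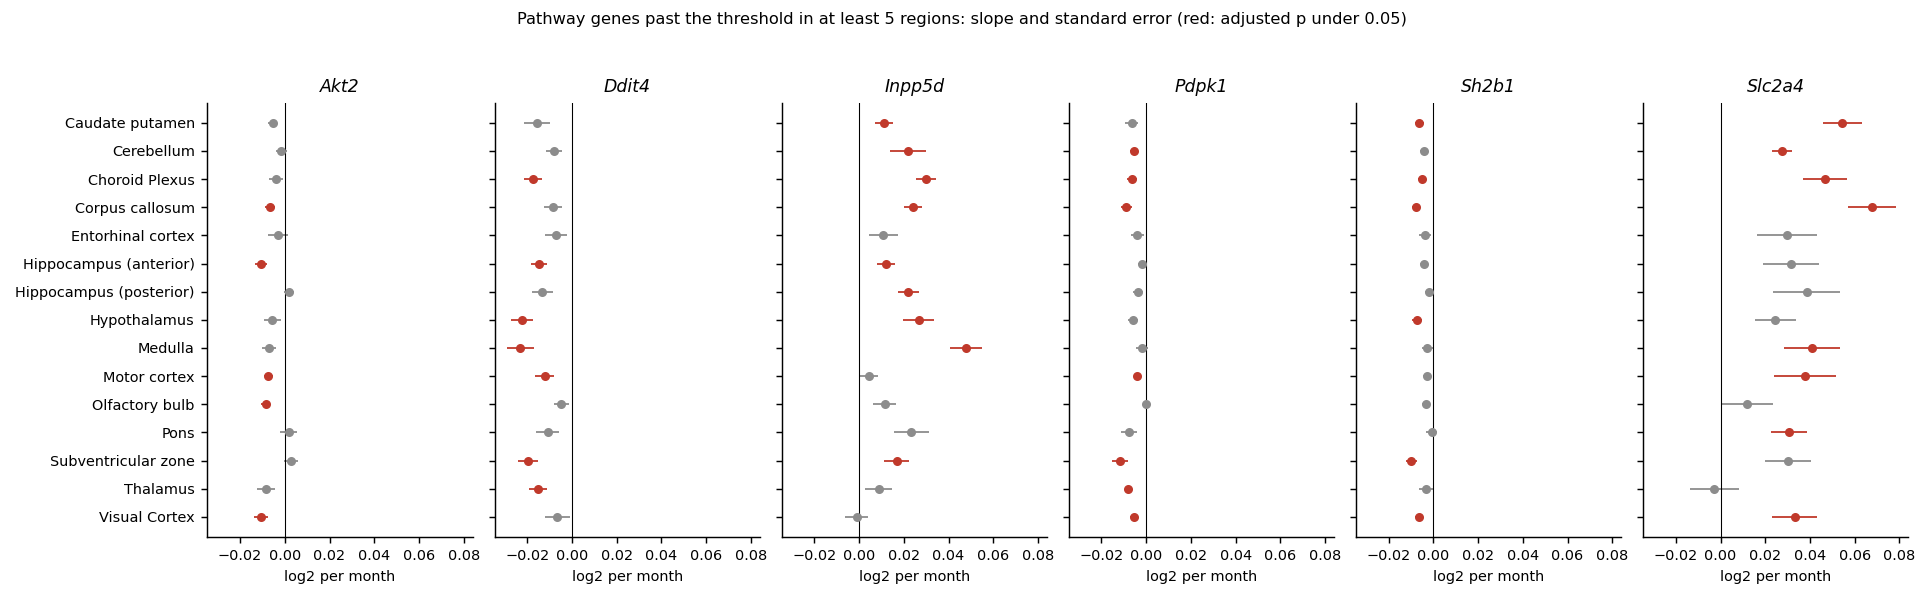
Slopes over age, in log2 per month from the edgeR fit, of the 6 further pathway genes that passed in 1 direction in at least 5 regions, with 1 point and standard error bar per region and the slopes past the threshold in red. Slc2a4 and Inpp5d lie above 0 where they pass, in 8 and 9 regions, and Ddit4, Pdpk1, Akt2 and Sh2b1 below it.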

How the data were processed

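RNA of homogenised tissue was turned into Smart-Seq2 cDNA and unstranded Nextera XT libraries, per the labels' protocols. The authors deposited read counts per gene symbol, 1 table of 21076 genes with 1 column per library. Trim Galore 0.3.7, STAR 2.5.3a, DESeq2 and the build GRCm38 are named, with no role, per the submitters' processing notes; the counting program is not given in the sources used here. Columns were matched to samples by name, and 0 columns were left over.

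From the counts, edgeR 4.0.16 (R 4.3.3) gave TMM factors and quasi-likelihood tests on all genes kept by filterByExpr, adjusted by Benjamini-Hochberg within a region and contrast at 0.05. Age slopes had sex as covariate; sex was tested at 3 to 21 months with age as a factor. Levels and slopes between regions came from 1 fit of 15069 genes, with the mouse as a replicate block in voom and limma 3.58.1 as an alternative. The numbers pair libraries of the same mouse; the correlation within a mouse was 0.0223 over 1507 genes. DESeq2 1.42.0, RLE scaling, no filter, depth and marker covariates, subsets of mice and mice left out in turn were the other alternatives. Tests were checked on simulated data. Each mouse is a sample; 1625 pairs of libraries within a group all differed by more than counting noise (lowest chi-square per degree of freedom 1.04). Symbols, positions and exon lengths are from GENCODE M21, on GRCm38, and promoters from RefSeq. Figures were drawn with matplotlib 3.10.9 in Python 3.11.15. Depth limits low genes: at the median total of 6716032 reads, 1 CPM is fewer than 10 reads.

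The members and all gene lists were chosen with earlier results of these data known. The text names all members, the 3 genes most like each (1 of them is not reported here), and pathway genes past the threshold in 1 direction in at least 5 regions.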

Additional observations from a re-analysis of the deposited data

Results flagged for a closer look

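Among the 8 pairs of a member and a region with a slope over age, 88 groups of 4 to 6 mice of 1 sex and age were searched for a single far library, and 3 had one; chance gives about 5% of groups. Igfbp4 in thalamus was at 13.2 CPM in mouse 27, a male of 18 months, against 5.16 to 7.08 CPM in the other 4 of its group. The same mouse had Igfbp5 at 49.7 CPM in caudate putamen, against 24.4 to 29.6 CPM. Irs1 in anterior hippocampus was at 18.9 CPM in mouse 55, a female of 18 months, against 14.4 to 15.2 CPM.

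The slope over age differed from the mean slope of the other 14 regions in 6 pairs, in log2 per month. These were Igf2r in medulla (0.0128), Igfbp4 in thalamus (-0.0366), Igfbp5 in caudate putamen (0.0246), olfactory bulb (-0.0186) and subventricular zone (-0.0209), and Irs2 in visual cortex (-0.0149).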

How the results depend on the processing

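The 8 age calls of the members became 14 with the leptomeninges covariate, the 3 rising ones 5 with DESeq2 and 6 with that covariate, and the 5 falling ones 8 with either marker covariate and 3 in males alone. Leaving out single mice gave 8 to 10 calls, 3 to 5 rising (5 without mouse 17, with Igfbp2 in posterior hippocampus and Insr in hypothalamus added) and 5 to 6 falling. The 20 calls at later ages became 10 in males alone and 17 without any 1 of the 28-month mice. The 6 sex differences became 0 in the 12-month mice and 2 in mice 16 to 56. The 6 slopes unlike the other regions became 2 in males alone, 0 in mice 16 to 56 and 4 with the replicate block, and the 2 genes with any slope difference became 1 with the block. The 56 neighbouring pairs that differed were 53 with the block and 36 in 3-month libraries alone. The cause of these shifts was not tested, beyond the fewer mice in each subset. None of the called age, sex or region-slope results changed direction in the settings run. Of single results over their alternatives, 156 age slopes kept their side of the threshold and 8 lost it; for later ages these were 90 and 29, for sex 14 and 10, and for slopes against other regions 12 and 12. Scaling, the filter and depth covariates changed no age call of the 8. Depth limits low genes such as Igf1 in caudate putamen.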
